A study of Mus musculus with 12 samples.

Results

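The serum amyloid and orosomucoid acute phase genes are a set of 10 mouse genes, Saa1, Saa2, Saa3, Saa4, Orm1, Orm2, Orm3, Lcn2, Hp and Cd14, taken by name, with the probe set of the highest mean kept for each symbol. All 10 were measured, each by 1 probe set, among 11861 genes. They were followed in spheroids, compact aggregates of primary hepatocytes, on 12 expression arrays. The spheroids were grown from 4 cryopreserved cell preparations of C57BL/6 mice, an inbred laboratory strain: male 1, male 2, female 1 and female 2, each made by pooling cells of 3 animals, and formed by self-aggregation in plates that prevent attachment. Every preparation was sampled at culture days 1, 7 and 14, which gave 2 arrays for each sex at each day. No treatment was labelled, ages are not stated, and fresh liver was not analysed here. Because a preparation is a pool, its value stands for several animals, and the spread reported is that between pools.

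The acute phase response is the change in what the liver secretes during infection or injury. Cytokines of the interleukin-6 family act on hepatocytes through a shared receptor chain and the transcription factor STAT3, and interleukin-1 acts through NF-kB, while C/EBP factors bind many of the same promoters. The serum amyloid A proteins are small lipoprotein-bound proteins and the orosomucoids are serum glycoproteins that bind drugs and lipids. Lipocalin 2 (Lcn2) withholds iron from bacteria, haptoglobin (Hp) binds free haemoglobin, and Cd14 is a coreceptor for bacterial endotoxin that macrophages and hepatocytes both make.

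The serum amyloid genes lie next to each other on chromosome 7 and the orosomucoid genes on chromosome 4, and their promoters show how alike the copies are. RefSeq promoter windows (GRCm38.p6), from 250 bases before to 50 bases after the gene start, were held for 7 of the 10 genes, all but Orm1, Hp and Cd14. The 6 windows of the serum amyloid and orosomucoid genes are shown because these genes carry the changes over culture described here. They read 5′ to 3′ on the strand of the gene, with capitals marking matches to the C/EBP letters TTGCNNAA on either strand.
Saa1 (chr7:46742931-46743230, minus strand): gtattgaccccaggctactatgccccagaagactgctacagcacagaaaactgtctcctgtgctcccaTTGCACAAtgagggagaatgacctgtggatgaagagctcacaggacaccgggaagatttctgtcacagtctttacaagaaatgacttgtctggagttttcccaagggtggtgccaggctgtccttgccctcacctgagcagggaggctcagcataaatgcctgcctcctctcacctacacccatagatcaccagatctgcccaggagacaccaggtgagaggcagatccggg
Saa2 (chr7:46751583-46751882, plus strand): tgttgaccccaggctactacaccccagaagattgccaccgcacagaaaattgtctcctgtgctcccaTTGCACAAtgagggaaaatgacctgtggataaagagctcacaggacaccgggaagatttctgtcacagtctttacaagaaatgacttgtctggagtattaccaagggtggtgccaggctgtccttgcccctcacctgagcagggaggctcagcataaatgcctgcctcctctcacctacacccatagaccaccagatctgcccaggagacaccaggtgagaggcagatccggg
Saa3 (chr7:46715627-46715926, minus strand): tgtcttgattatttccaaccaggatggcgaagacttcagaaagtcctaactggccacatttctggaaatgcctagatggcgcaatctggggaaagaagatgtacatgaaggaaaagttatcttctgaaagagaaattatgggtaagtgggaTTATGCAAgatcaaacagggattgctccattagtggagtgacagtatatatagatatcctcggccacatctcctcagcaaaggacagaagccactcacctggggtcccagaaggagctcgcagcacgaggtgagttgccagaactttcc
Saa4 (chr7:46732554-46732853, minus strand): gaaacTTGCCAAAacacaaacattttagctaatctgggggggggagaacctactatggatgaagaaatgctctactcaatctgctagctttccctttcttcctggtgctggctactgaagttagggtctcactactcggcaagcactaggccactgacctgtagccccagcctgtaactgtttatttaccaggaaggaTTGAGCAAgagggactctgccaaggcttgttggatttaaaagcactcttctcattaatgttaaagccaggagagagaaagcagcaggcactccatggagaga
Orm2 (chr4:63362199-63362498, plus strand): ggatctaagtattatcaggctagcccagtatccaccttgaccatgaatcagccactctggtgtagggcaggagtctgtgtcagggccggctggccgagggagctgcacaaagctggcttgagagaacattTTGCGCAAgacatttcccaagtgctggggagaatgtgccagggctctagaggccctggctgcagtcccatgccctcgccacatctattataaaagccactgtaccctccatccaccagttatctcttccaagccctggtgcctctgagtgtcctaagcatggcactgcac
Orm3 (chr4:63355908-63356207, plus strand): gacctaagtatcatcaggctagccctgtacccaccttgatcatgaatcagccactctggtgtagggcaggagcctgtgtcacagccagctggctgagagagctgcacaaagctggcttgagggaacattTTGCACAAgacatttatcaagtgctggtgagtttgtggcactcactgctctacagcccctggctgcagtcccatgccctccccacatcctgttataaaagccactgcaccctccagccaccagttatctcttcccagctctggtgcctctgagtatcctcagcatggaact

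The Saa1 and Saa2 windows were 95.3% identical and those of Orm2 and Orm3 86.6%, against 54.2% between Saa1 and Saa3 and 50.7% between Saa1 and Saa4. Array probes were not analysed here, so a probe set of one near-identical copy may read RNA of another, and the separate values of Saa1 and Saa2, and of the orosomucoid genes, are uncertain to that extent. The letters searched were chosen after the sequences were seen, and a match is a description, not a site. All 7 windows, Lcn2 included, held TTGCNNAA, which 10.8% of 32851 RefSeq promoter windows hold. The match began 182 bases before the start in Saa1, 183 in Saa2, 99 in Saa3, 120 in Orm2, 121 in Orm3 and 216 in Lcn2. Saa4 held a pair of matches, 245 and 52 bases before its start. None of the 7 windows held the STAT3 letters TTCNNNGAA, which 8.3% of all windows hold. Nor did any hold the NF-kB letters (GGG, any 2 bases, TT, any base and CC), which 4.79% of all windows hold. Each set of letters was searched on its own, on both strands.

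Values are deposited log2 levels, on which 1 unit is a doubling of signal, and the level of one probe set cannot be set against that of another. Array medians lay between 7.473 and 7.532. The highest value in the table was 12.84, and near that top a change may be understated, which touches Lcn2 and Hp on every array. The spheroids carried hepatocyte markers: the mean level of 12 such genes ranged from 10.79 to 11.09 at day 14, against 10.85 to 11 at day 1. These are bulk samples, so fewer cells of a type and less RNA per cell cannot be told apart.

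Over the whole culture 8 of the 10 genes rose and none fell. At day 14 against day 1, Saa2 was 5.52-fold, Saa1 3.81-fold, Saa3 3.16-fold and Orm3 2.56-fold higher. The rises were 1.88-fold for Orm2, 1.57-fold for Saa4, 1.26-fold for Cd14 and 1.25-fold for Orm1, while Lcn2 and Hp did not pass. The test was limma's, with p-values adjusted by Benjamini-Hochberg over all 11861 genes and a threshold of 0.05, and 7.59% of those genes rose. The median change of the 10 genes was 0.78 on the log2 scale, beside 0.007 over all genes. The arrays of the 2 days did not overlap for 7 of the 10 genes, all but Cd14, Lcn2 and Hp, a separation upward that 8.25% of all genes showed.

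**Figure D1:**
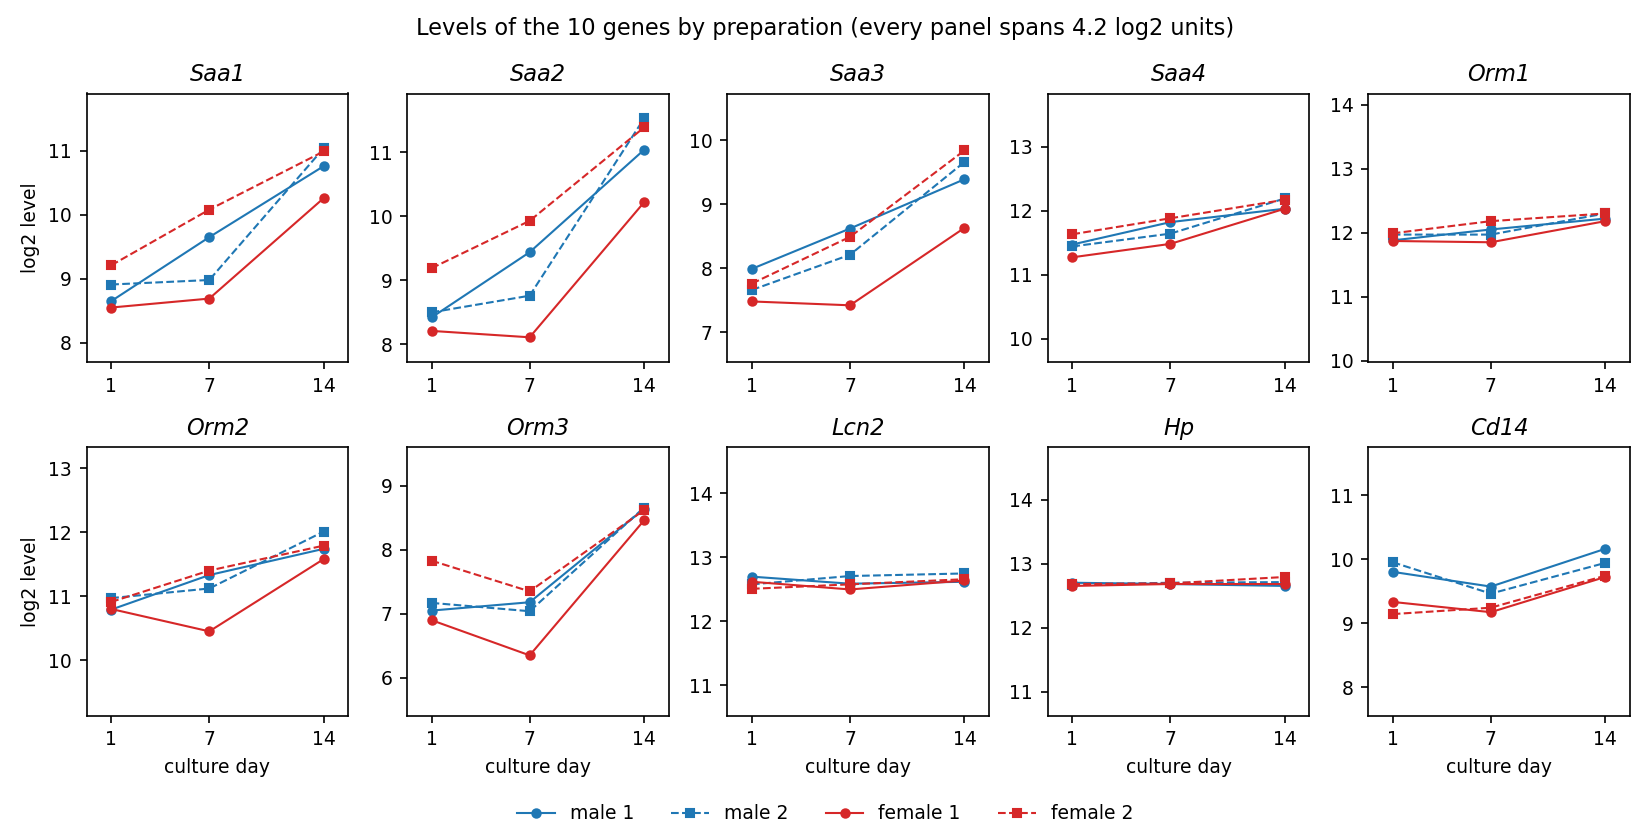
Log2 level (y axis, deposited values) of each of the 10 genes against culture day (x axis), 1 line per preparation, with blue for male, red for female, circles for preparation 1 and squares for preparation 2. Saa1, Saa2 and Saa3 end at day 14 above every day 1 value in all 4 preparations, with female 1 the lowest line, while Lcn2 and Hp stay above 12 on every array.

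Saa2, an inducible serum amyloid A, had log2 levels of 8.42 in male 1, 8.50 in male 2, 8.21 in female 1 and 9.19 in female 2 at day 1. At day 7 the same preparations had 9.44, 8.76, 8.11 and 9.93, and at day 14 they had 11.04, 11.53, 10.22 and 11.39. The lowest day 14 array was thus above the highest of both earlier days, and the change from day 1 was 2.47 ± 0.433 (log2 ± SE; limma adjusted p = 0.00739). It lay between 2.01 in female 1 and 3.03 in male 2.

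Saa1, its neighbouring copy, followed the same course. Its levels in male 1, male 2, female 1 and female 2 were 8.65, 8.91, 8.55 and 9.21 at day 1, 9.65, 8.98, 8.69 and 10.08 at day 7, and 10.76, 11.04, 10.26 and 10.99 at day 14. Day 14 was higher than day 1 by 1.93 ± 0.324 (adjusted p = 0.00604), with 1.71 to 2.13 in the single preparations. Female 1 was the lowest preparation at each day for Saa1, Saa2 and Saa3.

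Saa3, the serum amyloid A that mouse macrophages and adipose tissue also make, had 7.99, 7.66, 7.48 and 7.76 in male 1, male 2, female 1 and female 2 at day 1. It had 8.62, 8.21, 7.42 and 8.49 at day 7 and 9.39, 9.66, 8.63 and 9.84 at day 14, which did not overlap either earlier day. The change from day 1 was 1.66 ± 0.301 (adjusted p = 0.00833). Saa4, the constitutive serum amyloid A, started near the top of the scale and moved less. Its levels were 11.47, 11.44, 11.27 and 11.63 at day 1, 11.82, 11.64, 11.48 and 11.88 at day 7, and 12.03, 12.19, 12.03 and 12.17 at day 14, in the same order of preparations. The change of 0.65 ± 0.114 (adjusted p = 0.00722) ended close to the top of the scale.

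Among the orosomucoids, Orm3 changed most and differed in course. It had 7.05, 7.17, 6.90 and 7.83 in male 1, male 2, female 1 and female 2 at day 1, 7.18, 7.04, 6.35 and 7.35 at day 7, and 8.64, 8.66, 8.46 and 8.62 at day 14. Female 2 stood highest at day 1 and no longer did at day 14, where the 4 preparations lay between 8.46 and 8.66. The change from day 1 was 1.36 ± 0.241 (adjusted p = 0.0077), from 0.78 in female 2 to 1.59 in male 1. Orm2 had 10.79, 10.97, 10.80 and 10.91 at day 1, 11.33, 11.12, 10.45 and 11.40 at day 7 and 11.74, 12.01, 11.58 and 11.79 at day 14, a rise of 0.91 ± 0.185 (adjusted p = 0.0139). Female 1 stood apart below the others at day 7 and less so at day 14. Orm1 had 11.88, 11.97, 11.87 and 11.99 at day 1, 12.05, 11.97, 11.85 and 12.18 at day 7 and 12.22, 12.30, 12.18 and 12.30 at day 14. Its change of 0.32 ± 0.083 (adjusted p = 0.0346) was small and alike in the preparations, 0.31 to 0.34, at levels close to the top of the scale.

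Lcn2 and Hp were at the top of the scale on every array. Lcn2 ranged from 12.51 to 12.70 at day 1, from 12.50 to 12.71 at day 7 and from 12.62 to 12.75 at day 14. Its change at day 14 against day 1 was 0.07 (adjusted p = 0.555), and that of Hp, at 12.65 to 12.79 throughout, was 0.04 (adjusted p = 0.725). At such levels a rise in RNA need not show, so these values do not say that either RNA was steady.

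Cd14 had 9.80, 9.95, 9.33 and 9.14 in male 1, male 2, female 1 and female 2 at day 1, 9.57, 9.46, 9.17 and 9.24 at day 7, and 10.16, 9.94, 9.72 and 9.74 at day 14. Day 14 was higher than day 1 by 0.33 ± 0.0773 (adjusted p = 0.023), with overlapping arrays and a change of -0.02 in male 2. It was the member that rose in the fewest preparations among the 8 that passed, 3 of 4.

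The calls at day 14 against day 1 depended on the male preparations. Saa1 nevertheless changed by 1.94 without male 1 and by 1.92 without male 2, beside 1.93 with all arrays. With 1 male preparation left out, the spread within groups comes from the female pairs alone. For Saa2 the SD within groups was 0.691 to 1.29 in females and 0.0564 to 0.485 in males. The part of that spread in the lost calls was not tested. Without male 1 or without male 2, 0 of the 10 genes passed, although Saa2 still changed by 2.57 and 2.36, and the adjusted p of the 4 serum amyloid genes, Orm2 and Orm3 lay between 0.0803 and 0.135. Without female 1 or without female 2, 6 passed in each case (Saa1 to Saa4, Orm2 and Orm3), and Orm1 and Cd14 did not. Orm1 and Cd14 also lost their calls when the day 14 array of male 1 alone was left out (adjusted p = 0.0702 and 0.0696), and Cd14 when day 7 was not fitted (0.0547).

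The second week was tested on its own. At day 14 against day 7, Orm3 rose by 1.62 ± 0.241 and Cd14 by 0.53 ± 0.0773, both at adjusted p = 0.0323, and 2 of 10 genes passed where 0.304% of all genes did. The 4 preparations agreed in direction for both genes, with 1.27 to 2.11 for Orm3 and 0.47 to 0.60 for Cd14. They also did so for every other gene of the set but Hp. Saa2 changed by 1.98 (adjusted p = 0.098), Saa1 by 1.41 (0.111), Saa3 by 1.20 (0.141), Orm2 by 0.70 (0.151), Saa4 by 0.40 (0.17) and Orm1 by 0.24 (0.249), none of which passed. No test compared the weeks, and in male 1 the first week held more of the change of Saa4 (0.34, then 0.22) and Orm2 (0.54, then 0.41). The arrays of the 2 days nevertheless did not overlap for 7 genes, Saa1 to Saa4, Orm2, Orm3 and Cd14, where 2.86% of all genes lay apart upward.

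Each preparation was sampled repeatedly, so a fit blocked by preparation was also made. At day 14 against day 1 the same 8 of 10 genes rose in it, where 7.55% of all genes did. There Saa2 had 2.47 ± 0.211 (limma adjusted p = 0.00129) and Saa1 1.93 ± 0.193 (0.00204). At day 14 against day 7, 4 genes rose in the blocked fit, where 0.43% of all genes did. They were Saa1 (adjusted p = 0.0409), Saa2 (0.0255), Saa3 (0.047) and Orm3 (0.0121), while Cd14 had 0.0538. Without a block, 0 of 10 genes passed when male 1 or male 2 was left out, when the day 14 array of male 1 alone was left out, or when day 1 was not fitted. Leaving out female 1 or female 2 left 1, Orm3.

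**Figure D2:**
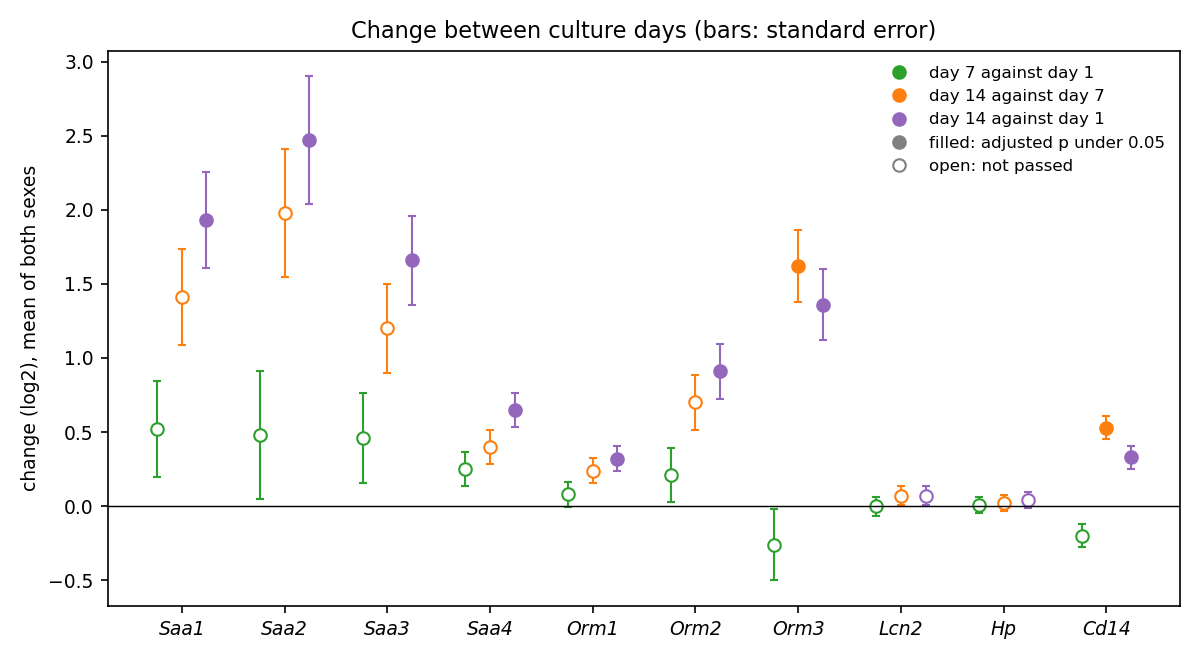
Change in log2 level (y axis, mean of both sexes, bars are standard errors) of the 10 genes (x axis) for day 7 against day 1 (green), day 14 against day 7 (orange) and day 14 against day 1 (purple), with filled points for genes that passed. Every green point is open, Orm3 and Cd14 lie below 0 in the first week, and the 3 inducible serum amyloid genes have the highest purple points.

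In the first week no gene of the set passed: 0 of 10 at day 7 against day 1, by limma, where 2.74% of all genes rose and 1.98% fell, and 1 of the 10 had an unadjusted p under 0.05. None of the 10 had arrays apart between these days, where 5.24% of all genes lay apart upward. Saa1 changed by 0.52, Saa2 by 0.48 and Saa3 by 0.46, with preparations that differed. For Saa1 the change was 1.00 in male 1 and 0.87 in female 2, but 0.07 in male 2 and 0.14 in female 1. For Saa2 it was 1.02 in male 1 and 0.75 in female 2, but 0.26 in male 2 and -0.10 in female 1. Orm2 had the same order, with 0.54 in male 1, 0.49 in female 2, 0.15 in male 2 and -0.35 in female 1. Orm3 and Cd14 went the other way, with -0.26 and -0.20 on average, and neither passed. The comparisons of days share arrays, so their values are not independent of each other.

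Sex was compared as male against female. At day 1 Cd14 was higher in males by 0.64 ± 0.109 (adjusted p = 0.0434), 1 of the 10 genes, where 0.346% of all genes were higher in males. The male arrays lay above the female arrays at all 3 days, but Cd14 did not pass at day 7 (0.31, adjusted p = 0.292) or day 14 (0.32, adjusted p = 0.227). Over all days the difference was 0.42 ± 0.0617 (adjusted p = 0.0859). The day 1 call was lost when arrays were centred on their medians (adjusted p = 0.0516) or when only the day 1 arrays were fitted (0.23). Without 1 preparation it was lost for male 1 (0.25), male 2 (0.28), female 1 (0.128) and female 2 (0.332).

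None of the other 9 genes passed between the sexes at any day or over all days, where 0.194% of all genes were higher in males at day 7, 0.253% at day 14 and 0.0927% over all days. Within the sexes, 4 of 10 genes rose in males between day 1 and day 14, Saa1, Saa2, Saa4 and Orm3, where 3.08% of all genes rose. In females Cd14 alone passed, 1 of 10, where 2.93% of all genes rose. The blocked fit gave other counts in both sexes. In males 6 of 10 genes rose in it, Saa1 to Saa4, Orm2 and Orm3, where 368 of all genes rose. In females 5 of 10 rose in it, Saa1 to Saa4 and Orm3, where 396 of all genes rose, and Cd14 did not pass (adjusted p = 0.0696). The 4 male calls were lost without male 1, male 2 or the day 14 array of male 1 (0 of 10), and the female call without male 1 or male 2 (0 of 10). That does not show a difference between the sexes. The sex difference in the change from day 1 to day 14 itself passed for 0 of 10 genes by limma and for 0% of all genes, and 815 of all genes had an unadjusted p under 0.05. Of all genes 17 passed without male 2, 14 with a trended and robust spread and 1 in the blocked fit, none of them among the 10. For the 10 genes the 95% intervals of that difference ran from -1.29 to 2.69 on the log2 scale, so sizeable differences are within them. The sex differences in the change from day 1 to day 7 and from day 7 to day 14 likewise passed for 0 of 10 genes and 0% of all genes, and 565 and 485 of all genes had an unadjusted p under 0.05 (for the second week 1 gene, none of the 10, passed without male 2).

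Cells other than hepatocytes can hold some of these RNAs. Of 22 Kupffer cell and macrophage markers 18 were measured, and 16 of them were above 0 in change at day 14 against day 1, with a median of 0.96. Csf1r, the receptor for macrophage colony-stimulating factor, alone passed (1.21 ± 0.291, adjusted p = 0.0268), a call lost without any 1 preparation (adjusted p = 0.0605 to 0.149) or the day 14 array of male 1 (0.0768). In the blocked fit 11 of 18 rose at day 14 against day 1, where 7.55% of all genes did, and 6 of 18 at day 7 against day 1, where 2.75% of all genes did and 0 markers unblocked. Unblocked, the number of markers that rose at day 14 against day 1 depended on which preparation was left out, so that number was not steady. Their mean level ranged from 5.007 to 7.024 at day 14, against 4.351 to 5.323 at day 1. Lyz2, the lysozyme of macrophages and neutrophils, changed by 2.38 ± 0.719 (adjusted p = 0.0599, or 0.00266 in the blocked fit), and Adgre1 (F4/80) by 0.55 (0.333). Clec4f, a Kupffer cell receptor chosen here after its values were seen, lay between 3.99 and 6.01 on all arrays. That is close to 4.787, a level that every probe set of the table reached on at least 1 array. Of the 18 markers only 3 stayed at or above that level on every array. Lyz2 had 4.29 in male 2 and 3.74 in female 2 at day 1.

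The preparations did not rank alike for these markers and for serum amyloid. At day 14 female 1 had the highest mean of macrophage markers, 7.024, and the lowest level of Saa1, Saa2 and Saa3, while female 2 had the lowest mean, 5.007. Between the sexes the macrophage markers had a median difference of -0.21 over all days, the opposite sign to Cd14, and none of the 18 passed. Of 14 neutrophil markers 1 was measured, Itgam, which changed by -0.25 (adjusted p = 0.81). The part of these cells in the values of Saa3 and Cd14 was not tested.

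**Figure D3:**
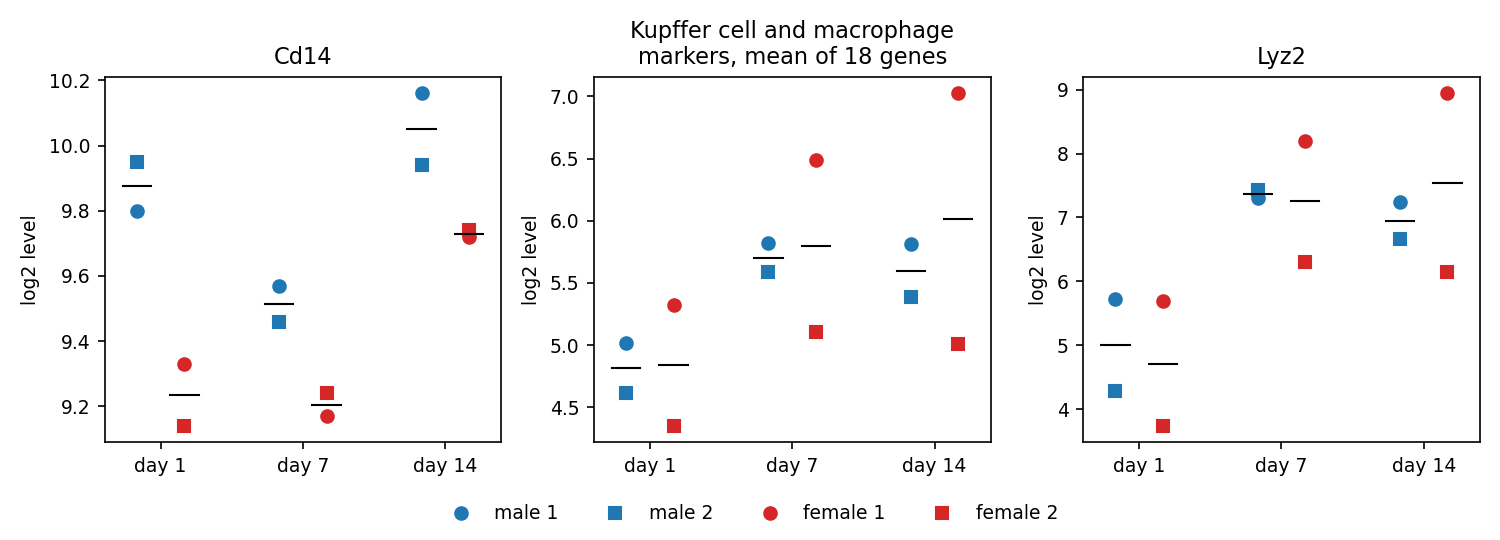
Log2 level (y axes, each with its own range) of Cd14, of the mean of 18 macrophage markers and of Lyz2, by culture day (x axis), with male arrays (blue) left of female arrays (red), circles for preparation 1, squares for preparation 2 and black bars for means. The mean of Cd14 lies higher in males at each day, whereas the female 1 arrays are the highest of their day for the macrophage markers.

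Other cell markers moved as well. Stellate cell and fibroblast markers fell for 9 of 15 measured and rose for 1, with a median change of -1.46 (Col3a1, a fibrillar collagen, -2.99), where 6.8% of all genes fell. In males the list's mean level was 5.069 at day 14, against 7.378 at day 1, and in females 6.714, against 7.373; the difference between the sexes in that change was not tested for the list. Endothelial markers fell for 5 of 10, or 1 to 4 with a preparation left out, and Cdh5, a junction protein of vessels, fell by 2.40. Of 12 cholangiocyte markers 6 were measured and 4 rose, where 7.59% of all genes did. The keratin Krt19 rose by 1.81 ± 0.16 (adjusted p = 0.00035), from a dim mean of 4.395 at day 1. None fell (1 in the blocked fit), but Krt7 and Sox9 had lower means at day 14 than at day 1. Krt7 went from 9.322 to 8.759 and Sox9 from 9.787 to 9.566. None of the 12 hepatocyte markers passed, and their median change was 0.01. Trf, Alb, Apoh and Ttr, with day 1 means of 12.82, 12.73, 12.23 and 12.01, were near the top of the scale, where a change may be understated. Pck1 had the largest change of the 12 and was dim, with a mean of 5.439 at day 1 and 4.921 at day 14. The part of these cell types in the rise of the acute phase genes was not tested.

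Most other acute phase proteins did not pass. Of 34 listed 29 were measured, and 4 rose and 2 fell at day 14 against day 1, with a median change of 0.03, where 7.59% of all genes rose and 6.8% fell. Without male 1 or male 2, 1 rose, and 0 fell without male 2 or female 2 and 1 without female 1. C9, the last component of the membrane attack complex, rose by 1.65 ± 0.297 (adjusted p = 0.00815), lost without male 1 (0.0866) or male 2 (0.0937). Its day 14 levels of 9.70, 9.57, 8.98 and 9.25 in male 1, male 2, female 1 and female 2 lay above its day 1 levels of 8.26, 7.87, 6.98 and 7.79. Crp, the pentraxin C-reactive protein, rose by 0.70 ± 0.0884 (adjusted p = 0.00172), and changed by 0.52 at day 7 against day 1, a call (adjusted p = 0.0166) that none of the 4 fits without a preparation made (adjusted p up to 0.215). A2m, a protease inhibitor, fell by 1.03 (adjusted p = 0.00769), lost without male 2 (0.0716) or female 2 (0.0779), and Fgf21, a liver hormone, fell by 0.51 (adjusted p = 0.0448), lost without male 2, female 1 or female 2 (0.162 to 0.228), without the day 14 array of male 1 (0.0855) and in the blocked fit (0.0512), where A2m was the 1 that fell. A2m was lowest at day 7, with means of 8.349, 6.208 and 7.32 at days 1, 7 and 14. Fgb, a fibrinogen chain, changed by -0.05 (adjusted p = 0.602). Its means of 12.53 at day 1 and 12.48 at day 14 were near the top of the scale, where a rise need not show. That limit also touches Fga, Fgg, Hpx, Mt1 and Mt2, with day 1 means of 12.53, 12.48, 12.62, 12.56 and 12.59. These values do not say that such RNAs were steady. C3 had no probe set here.

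Negative acute phase proteins, which the liver makes less of in inflammation, fell for 4 of 16 and rose for none, where 6.8% of all genes fell, with a median change of -0.03. Without male 1 or male 2, 1 fell, and without female 1 or female 2, 2 fell. Igf1, insulin-like growth factor, fell by 1.46 (adjusted p = 0.00149), and Igfals, its serum partner, by 0.66 (0.00515), a call lost without male 1 (0.065) or male 2 (0.0791). Apoa4, an apolipoprotein, fell by 0.59 (0.0121) and Fetub, a fetuin, by 0.42 (0.00766), both lost without any 1 preparation (adjusted p = 0.0503 to 0.105). Albumin (Alb) changed by 0.01 (adjusted p = 0.89), from a mean of 12.73 at day 1, near the top of the scale, where a change may be understated.

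Of the receptors and kinases that carry the cytokine signal 13 of 13 were measured, and 1 rose and 1 fell at day 14 against day 1, near the 7.59% of all genes that rose and the 6.8% that fell. Il22ra1, a chain of the interleukin-22 receptor, rose by 0.40 (adjusted p = 0.00964), lost without any 1 preparation (0.0572 to 0.116), and Lifr, the leukaemia inhibitory factor receptor, fell by 0.70 (0.00104). The interleukin-6 receptor Il6ra changed by -0.21 (adjusted p = 0.135), its shared signalling chain Il6st by 0.15 (0.366) and the interleukin-1 receptor Il1r1 by 0.05 (0.806). None of these 3 passed. Of 17 inflammatory cytokines 7 were measured and 0 passed at day 14 against day 1 by limma (1 fell without male 2). Il33, an alarmin, had the largest change of the 7, -0.70 (adjusted p = 0.0654, unadjusted p = 0.011).

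Among transcription factors and feedback genes 2 of 22 measured rose, of 26 listed, and 4 fell, where 7.59% of all genes rose and 6.8% fell. Tnfaip3, the A20 brake on NF-kB, rose by 0.95 ± 0.128 (adjusted p = 0.00225) and Nfkbiz, a nuclear IkB protein, by 0.53 (0.00423), the call of Nfkbiz lost without male 1 (0.099) or male 2 (0.0555). Without any 1 preparation 1 gene of the list fell, and without male 1 or male 2, 1 rose. Socs2, a feedback gene of growth hormone signalling, fell by 0.95 (0.00105), and Stat5b, a growth hormone effector, by 0.36 (0.0195), lost without any 1 preparation (0.0621 to 0.2) or the day 14 array of male 1 (0.0644). Stat3 changed by -0.04 (adjusted p = 0.675), its feedback gene Socs3 by 0.25 (0.122), Cebpb by -0.10 (0.388), Cebpd by 0.03 (0.866) and Nfkbia, an inhibitor of NF-kB, by 0.34 (0.106). None of those 5 passed.

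Cd14 works with other proteins in recognising endotoxin. Of 13 listed genes of bacterial recognition and the signalling behind it 10 were measured. Of these 2 rose at day 14 against day 1, where 7.59% of all genes did. Tlr2, a receptor for bacterial lipoproteins, rose by 0.49 (adjusted p = 0.0394) and Lbp, which hands endotoxin to Cd14, by 0.20 (0.034). Both calls were lost without any 1 preparation (0.106 to 0.263) or the day 14 array of male 1 (0.0996 and 0.0792), and that of Lbp in the blocked fit (0.0639), where 1 of 10 rose. Tlr4, the endotoxin receptor itself, changed by 0.02 (adjusted p = 0.905).

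**Figure D4:**
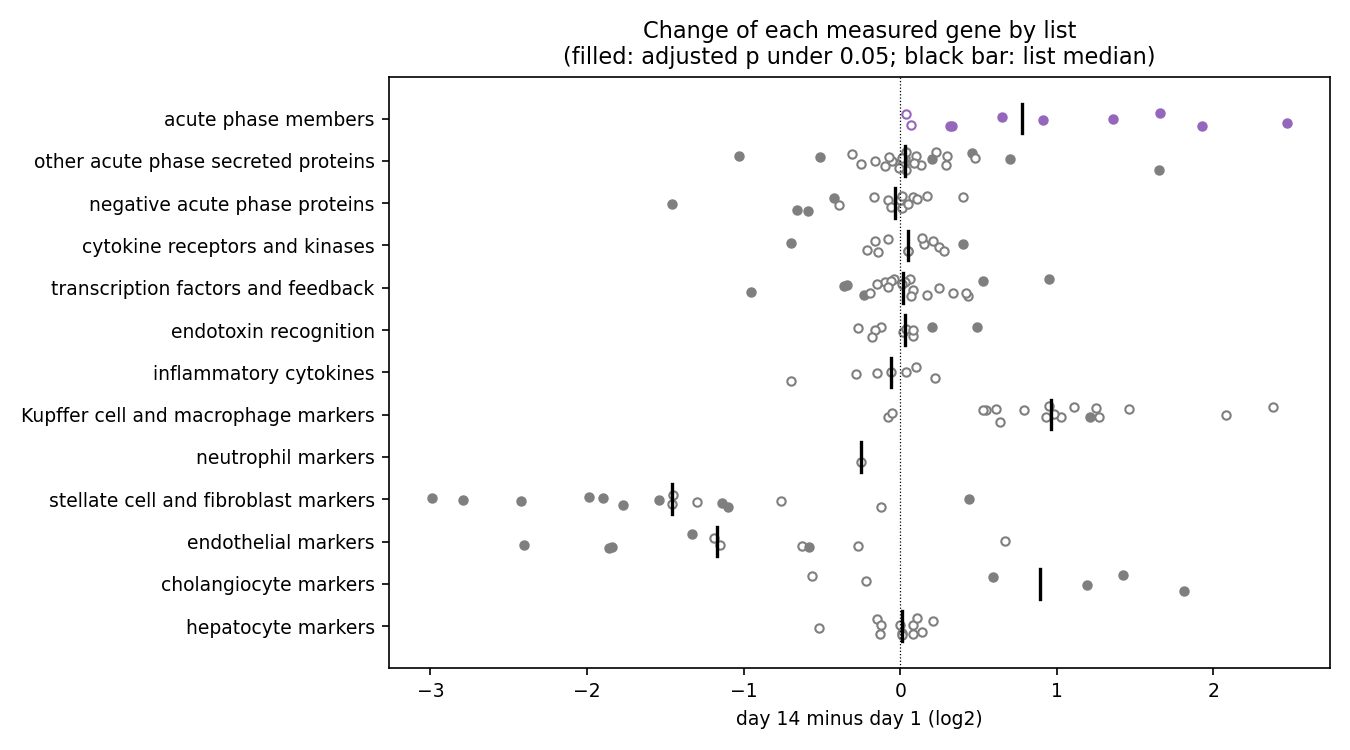
Change in log2 level at day 14 against day 1 (x axis) of each measured gene, by list (rows), with filled points for genes that passed and a black bar at each list median. The acute phase genes named here (top row, purple) have a median of 0.78. The other acute phase genes, in a row labelled as secreted proteins but not limited to them, have 0.03. Kupffer cell and macrophage markers have 0.96, nearly all with open points.

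Over the 12 arrays the other acute phase genes were compared with the mean profile of Saa1, Saa2 and Saa3, as a description over arrays that come from 4 preparations and share days. Pearson's r was 0.976 for Orm1, 0.971 for Saa4, 0.964 for Orm2 and 0.899 for Orm3. It was lower for Cd14 (0.538), Hp (0.514) and Lcn2 (0.445). Among all other genes, predicted and clone-named ones left out, the 8 most alike were Serpina10 (0.952), Plxna1 (0.945), C9 (0.932), Def8 (0.926), Tmem120a (0.925), Itih3 (0.923), Vps45 (0.923) and Ralgps2 (0.92). Serpina10, the protein Z-dependent protease inhibitor, is a secreted liver protein, and Itih3 is a heavy chain of the inter-alpha-trypsin inhibitors. Serpina10 had its lowest day 14 level in female 1, 10.76, against 11.17, 11.14 and 11.13 in male 1, male 2 and female 2. It was picked for likeness over these same arrays, so sharing the low value of female 1 adds no separate result.

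The genes that flank each family on its chromosome were looked at next. In the order Saa3, Saa4, Saa1, Saa2 (RefSeq, GRCm38.p6) the changes at day 14 against day 1 were 1.66, 0.65, 1.93 and 2.47, while the genes on either side, Saal1 and Hps5, changed by 0.11 and 0.02 and did not pass. Of 8 measured neighbours of the Saa genes 1 passed, Gtf2h1, with -0.32 (adjusted p = 0.021), a call lost without any 1 preparation (0.0594 to 0.212) or the day 14 array of male 1 (0.0627). In the order Orm1, Orm3, Orm2 the changes were 0.32, 1.36 and 0.91. Of their 8 measured neighbours 1 passed, Zfp618, with 0.68, and the nearest measured on each side, Col27a1 and Whrn, had 0.22 and 0.33 and did not pass. The neighbours were chosen by position after the values of the acute phase genes were known.

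**Figure D5:**
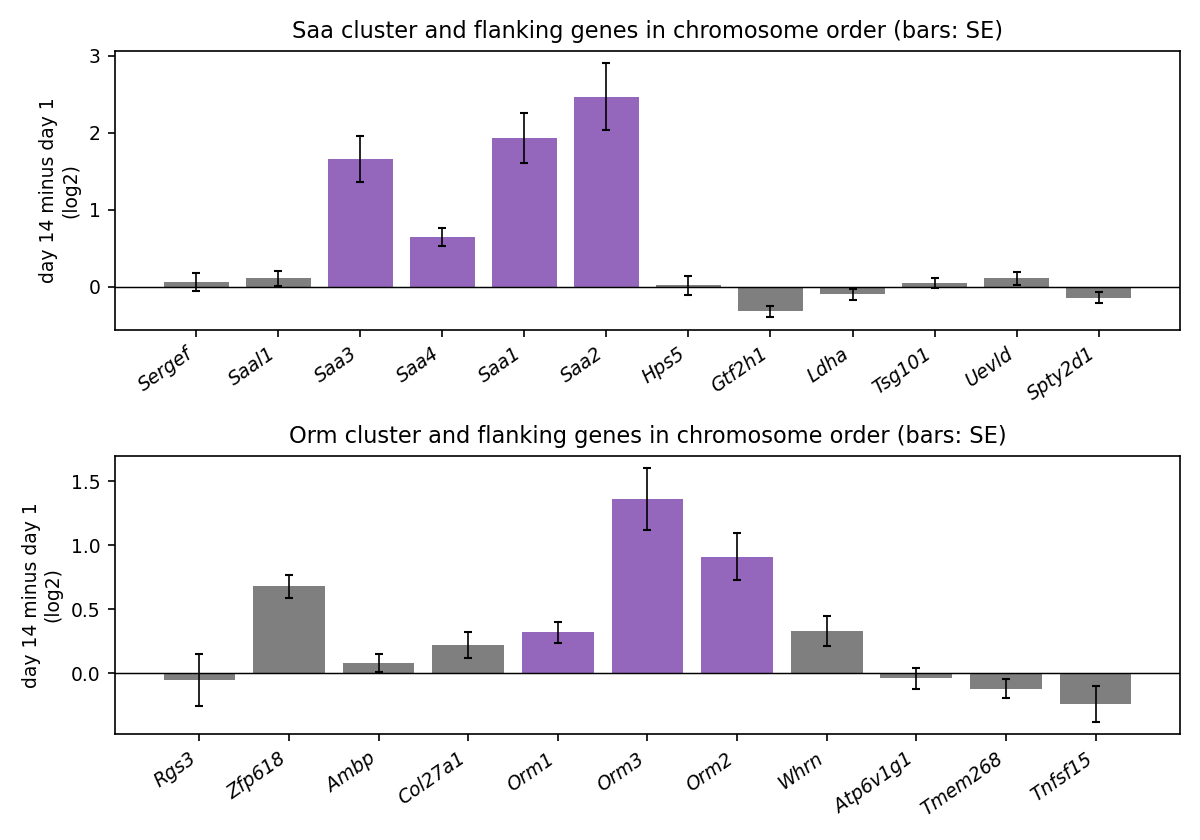
Change in log2 level at day 14 against day 1 (y axes, bars with standard errors) of the measured genes around the Saa genes (top) and the Orm genes (bottom), in chromosome order along the x axis, with the acute phase genes in purple. The flanking genes beside the Saa genes lie between -0.32 and 0.11 and those beside the Orm genes between -0.24 and 0.68.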

How the data were processed

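Total RNA of spheroids from 4 preparations, sampled at 3 days, was labelled with biotin and read on 12 arrays. The authors deposited log2 values, 1 for each probe set on an array. RMA, Transcriptome Analysis Console 4.0 and Partek 7.0 are listed in the submitters' processing notes. How low values were filtered is not given in the sources used here. All 13081 probe sets reached at least 4.787 on 1 array. A symbol was listed for 11889 of them, and the probe set with the highest mean was kept for each of 11861 genes. The level of a dim gene may be understated, as may any change near 12.84. Groups came from the sample labels.

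Tests used limma 3.58.1 in R 4.3.3 and version 1.17.8 of data.table, with 6 group means (sex by day) in 1 model. A day comparison averages the sexes, and sex over all days used the mean of each preparation. Tests were two-sided and adjusted by Benjamini-Hochberg over all 11861 genes, with 0.05 as threshold, and the code was tested on simulated data. Precision is limited by the number of arrays, with 0.0946 as the median SE of a day comparison. Promoters were read with Python 3.11.15 and aligned with Biopython 1.88.

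A donor number marks 1 pool of animals at all 3 days, so it pairs the arrays by label. The deviations of same-numbered arrays from their group means correlated between days at 0.0359 to 0.224 in males and 0.0657 to 0.324 in females. The fit without the block is the main one and the block is the alternative. Other alternatives were centring each array, a second quantile normalization, leaving out the lowest 25% of genes by mean, the mean of all probe sets of a gene, a trended and robust spread, fitting only the groups compared, and leaving out a preparation or only the day 14 array of male 1.

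The 10 genes and all lists were chosen with earlier results of these data known. Beside the 10 genes, the text names in each list up to 4 genes that passed at day 14 against day 1, taken by size of change, or 1 where none passed, some always named genes of the pathway, and the 8 genes most like Saa1, Saa2 and Saa3. S100a8 and S100a9 were to be named and had no probe set here. Of the 7 promoters matched, that of Lcn2 is not printed.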

Additional observations from a re-analysis of the deposited data

How the results depend on the processing

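The 3 day comparisons kept their direction for the 10 genes in the alternatives, apart from changes near 0. At day 7 against day 1 Lcn2 was 0.022 after a second quantile normalization and ran from -0.061 to 0.055 with a preparation left out, Hp from -0.0015 to 0.025 and Orm2 from -0.0015 to 0.42. At day 14 against day 7 Hp ran from -0.0015 to 0.049. With a preparation left out, the number of the 10 genes that passed was 0 to 6 at day 14 against day 1, 0 to 1 at day 14 against day 7, 0 to 6 in males, 0 to 1 in females and 0 for male against female at day 1.

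Fitting the compared groups alone gave 0 of the 10 genes at day 14 against day 7, 0 in females and 0 for male against female at day 1, and centring the arrays gave 0 for the last. Without the day 14 array of male 1, 0 passed at day 14 against day 7 and 0 in males. The replicate block gave 4 at day 14 against day 7 and 5 in females, and it changed no other count of the 10 genes by over 1.5 times. Leaving out the lowest 25% of genes by mean gave 4 in females and 1 for sex over all days, the quantile normalization 2 in females, and the trended and robust spread 1 for sex over all days.

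Over all genes, 1706 passed at day 14 against day 1 (494 to 826 with a preparation left out). At day 7 against day 1 it was 560 (40 to 75, and 956 with the trended and robust spread). At day 14 against day 7 it was 58 (0 to 8), with 23 for the compared groups alone, 103 without those 25%, 9 without the day 14 array of male 1, 101 with the replicate block and 309 with the trended and robust spread. For sex over all days it was 21, with 280 without those 25% and 974 with the trended and robust spread. Each fit without a preparation has fewer arrays and 1 group of each day with a lone array, assumed to vary like the others. The cause of the other differences was not tested. Signal near the top of the scale limits Lcn2, Hp and other listed genes such as Fgb and Alb, and dim signal limits the macrophage markers.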
